A study of Mus musculus with 12 samples.

Results

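The EGF receptor family and its ligands were followed in hepatocytes that carried extra P16 or only eGFP, before and after partial removal of the liver. The 10 listed genes were the receptors Egfr, Erbb2, Erbb3 and Erbb4, the receptor inhibitor Errfi1, and the ligands Hbegf, Tgfa, Areg, Egf and Btc. They were chosen by name: 9 of the 31053 gene rows of the count table carry the name of a listed gene. Areg had no row of its name, because its Ensembl identifier (ENSMUSG00000029378) is deposited under the symbol Mcub, and it was read by identifier. The list was proposed with earlier results of these data in view, and which values led to it is not recorded, so the p-values below are the output of the fit over all genes and not independent support for the choice.

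Poly(A) RNA was sequenced from freshly isolated hepatocytes of 12 C57BL/6J wild-type mice aged 3 months on a chow diet, 3 mice in each of 4 groups. Every mouse had received an adeno-associated virus of serotype AAV8 through the tail vein, with the transgene under the TBG promoter, which is active in hepatocytes. The groups were P16 mice (AAV8-TBG-eGFP-P16) 48 h after removal of 70% of the liver, GFP mice (AAV8-TBG-eGFP) 48 h after the same operation, P16 mice before surgery (0 h), and GFP mice before surgery (0 h). P16, encoded by Cdkn2a, is an inhibitor of the kinases CDK4 and CDK6, and its overexpression is used in this study as a model of hepatocyte senescence. The samples analysed here hold no group without a virus and no sham operation, so the virus is shared by all groups and time after surgery cannot be told apart from surgery itself.

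Receptors of this family sit in the cell membrane, pair up when a ligand binds, and phosphorylate one another, which starts the RAS-ERK and PI3K-AKT cascades. EGFR binds EGF, TGF-alpha, amphiregulin, betacellulin and HB-EGF, whereas ERBB3 binds neuregulins, has little kinase activity of its own and needs a partner receptor. In liver, EGFR and ERBB3 are the hepatocyte receptors of the family, and EGFR ligands are among the growth signals studied in regeneration after hepatectomy.

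The libraries held 14617049 to 25409451 reads in genes, and levels are given as CPM, that is counts scaled by library size and the trimmed mean of M-values. Cdkn2a had 256, 425 and 402 reads in P16 mice at 48 h and 0, 5 and 0 reads in GFP mice at 48 h, with 620, 105 and 355 reads in P16 mice at 0 h and 0 in every GFP mouse at 0 h. The summed level of 9 hepatocyte markers, most of it Alb, was 67360 to 101600 CPM in all 12 libraries. After surgery 4 of the 9 fell past the test in P16 mice (median log2 fold change -0.41), against 19% of all tested genes. In GFP mice 5 of the 9 fell (median -0.59), against 16.4%, and none rose in either. Alb averaged 58720 CPM in P16 mice and 54030 CPM in GFP mice at 48 h, against 46990 and 57890 CPM at 0 h. The part of the falls in the changes over time was not tested. Summed macrophage markers (10 genes) were 62.3 to 79.3 CPM in P16 mice at 48 h, 38.2 to 93.1 CPM in GFP mice at 48 h, 24.0 to 35.3 CPM in P16 mice at 0 h and 27.9 to 177 CPM in GFP mice at 0 h. No macrophage, endothelial, stellate cell or hepatocyte marker was at 0 in a library. GFP replicate 2 at 0 h stood apart, with the macrophage sum of 177 CPM. Its Saa1 level, an acute-phase marker, was 6413 CPM, whereas GFP replicates 1 and 3 of that time had 71.6 and 445 CPM. The highest Saa1 level was that of P16 replicate 2 at 48 h, 10220 CPM, against 4010 and 2161 CPM in P16 replicates 1 and 3 of that time. An alternative left out both of these libraries together. In such bulk samples fewer cells of a type and less RNA per cell cannot be told apart.

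Of the 10 listed genes, 8 had enough reads to be tested, and Erbb2 and Areg did not. A gene passed at a Benjamini-Hochberg adjusted p under 0.05 from the edgeR quasi-likelihood test over 12257 genes. Between P16 and GFP mice at 48 h, 1 of the 8 tested members passed (Erbb3, lower), against 2.28% of all tested genes (1.24% higher, 1.04% lower). Between P16 and GFP mice at 0 h, 1 of 8 passed (Erbb3, higher), against 0.22% of all tested genes (0.122% higher, 0.0979% lower). From 0 h to 48 h, 1 of 8 passed in P16 mice (Erbb3, lower), against 38.6% of all tested genes (19.6% higher, 19% lower). In GFP mice 3 of 8 passed (Hbegf and Btc higher, Errfi1 lower), against 33.6% (17.2% higher, 16.4% lower). The share of members called over time was near or below that of all genes. In the test of whether the response to hepatectomy differed between P16 and GFP mice, 1 of 8 passed (Erbb3, lower), against 0.0979% of all tested genes (0.0326% higher, 0.0653% lower). Groups without overlap made up 28.2% of all tested genes between P16 and GFP mice at 48 h, 14.4% at 0 h, 49.5% between the times in P16 mice and 47.6% in GFP mice. The comparisons share groups of mice, so these counts do not bear on each other independently.

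**Figure D1:**
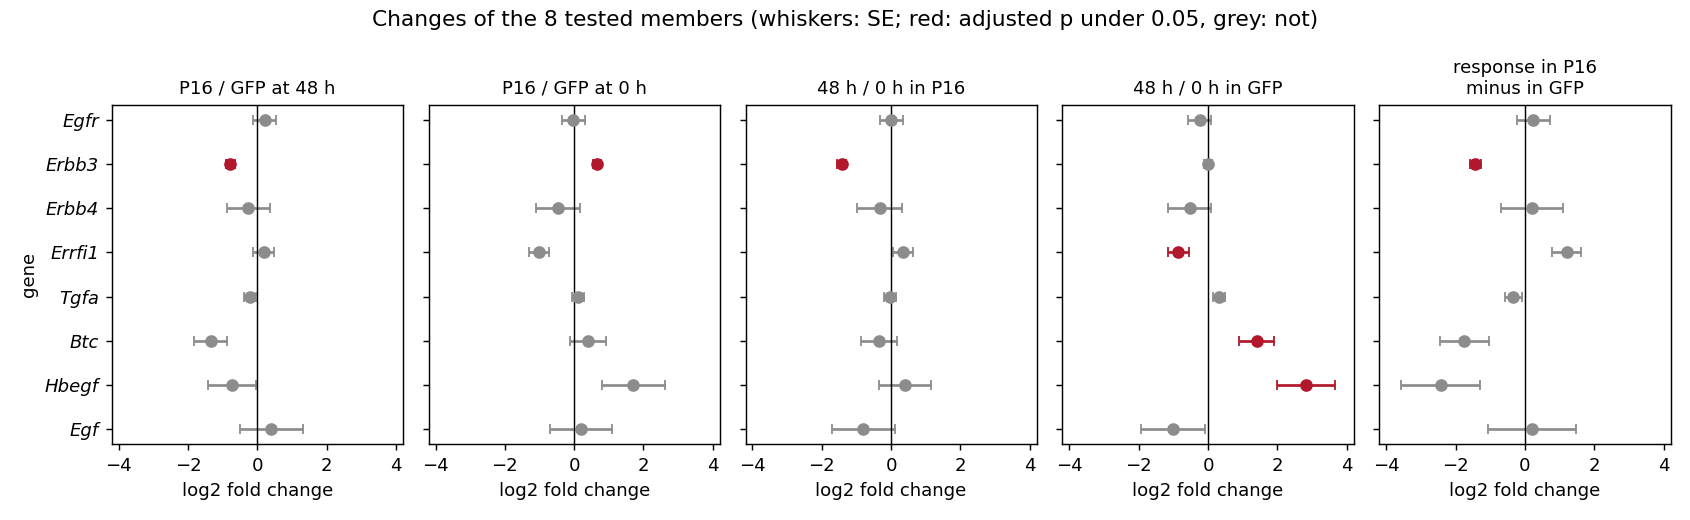
Log2 fold change (with its standard error as a whisker) of the 8 tested members in each comparison from the edgeR fit; red points passed at an adjusted p under 0.05 and grey ones did not. Erbb3 lies at -0.77 between P16 and GFP mice at 48 h and at 0.65 at 0 h, while Egfr stays within 0.24 of 0 in every comparison.

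Promoter windows of 250 bases before the RefSeq transcription start (build GRCm38.p6) were found for 8 of the 10 listed genes. Those of Errfi1 and Btc are shown because these members passed the test in GFP mice and their windows were in the table, and that of Egfr because it is the receptor with the highest level. Capitals mark every match, on either strand, of the TATA box letters TATAAA, the cyclic AMP response element letters TGACGTCA, the AP-1 letters TGACTCA and the GC box letters GGGCGG. Sequences run 5′ to 3′ on the strand of the gene.
Errfi1, downstream start, chr4:150854820-150855069, plus strand: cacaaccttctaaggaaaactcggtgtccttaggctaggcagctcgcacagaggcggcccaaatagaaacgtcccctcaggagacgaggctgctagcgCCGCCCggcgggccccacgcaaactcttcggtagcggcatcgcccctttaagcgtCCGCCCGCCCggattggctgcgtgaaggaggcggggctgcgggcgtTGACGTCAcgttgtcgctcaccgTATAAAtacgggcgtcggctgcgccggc
Errfi1, upstream start, chr4:150853546-150853795, plus strand: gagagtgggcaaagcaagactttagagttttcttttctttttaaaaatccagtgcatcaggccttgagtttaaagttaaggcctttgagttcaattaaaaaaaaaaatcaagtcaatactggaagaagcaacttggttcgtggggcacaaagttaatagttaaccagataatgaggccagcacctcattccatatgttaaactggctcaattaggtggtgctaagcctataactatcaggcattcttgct
Egfr, chr11:16751953-16752202, plus strand: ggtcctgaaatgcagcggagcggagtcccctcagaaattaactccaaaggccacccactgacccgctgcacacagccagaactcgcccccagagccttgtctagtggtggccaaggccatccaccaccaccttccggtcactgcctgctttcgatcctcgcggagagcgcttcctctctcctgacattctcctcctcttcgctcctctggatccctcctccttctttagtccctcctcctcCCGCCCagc
Btc, chr5:91402995-91403244, minus strand: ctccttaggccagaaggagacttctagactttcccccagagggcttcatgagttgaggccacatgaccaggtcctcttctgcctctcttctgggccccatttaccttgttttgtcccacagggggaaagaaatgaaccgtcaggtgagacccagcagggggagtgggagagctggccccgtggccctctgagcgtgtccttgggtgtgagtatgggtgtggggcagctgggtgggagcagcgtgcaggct

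The downstream window of Errfi1 held 1 TATAAA, 1 TGACGTCA and 3 GGGCGG matches, of which 1 pair overlaps, and its GC content was 64.8%. The upstream window of Errfi1 held no match and was 38% GC. The Egfr window held 1 GGGCGG match and was 60.8% GC, and the Btc window held no match and was 59.6% GC. Over 32851 RefSeq windows of the same length, 12.4% held TATAAA, 1.55% held TGACGTCA, 4.46% held TGACTCA and 32.7% held GGGCGG. A match is a stretch of letters and not a shown binding site.

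Erbb3 (ENSMUSG00000018166, GRCm38 chromosome 10, 128567523 to 128589652, minus strand) encodes the neuregulin receptor that signals through its partner receptors. Its level was 58.7, 50.9 and 50.8 CPM in P16 mice at 48 h and 92.6, 94.8 and 86.9 CPM in GFP mice at 48 h. At 0 h it was 156, 127 and 148 CPM in P16 mice and 101, 84.8 and 88.1 CPM in GFP mice. All 3 P16 mice at 48 h were below every other mouse, all 3 P16 mice at 0 h were above every other mouse, and the GFP mice at both times overlapped in between.

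At 48 h Erbb3 was 1.71-fold lower in P16 than in GFP mice (53.5 ± 4.54 against 91.4 ± 4.06 CPM, SD, n = 3 each; log2 fold change -0.77, SE 0.12, edgeR adjusted p = 0.00662). This call held in all 20 alternative analyses, with a highest adjusted p of 0.0422. The share of reads outside annotated features at 48 h was 4.39 to 9.8% in P16 libraries and 3.62 to 3.92% in GFP libraries, and the summed cholangiocyte markers were 32.4 to 38.0 CPM in P16 mice and 29.1 to 31.0 CPM in GFP mice. From 2 to 4 of these 8 markers were at 0 in a library of 48 h, and the part of either measure in the result was not tested.

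At 0 h the direction was opposite: Erbb3 was 1.57-fold higher in P16 than in GFP mice (143.5 ± 14.9 against 91.2 ± 8.38 CPM, SD, n = 3 each; log2 fold change 0.65, SE 0.12, edgeR adjusted p = 0.0298). The call was lost without P16 replicate 1 (edgeR adjusted p = 0.0896) or 3 (0.101) at 0 h, without GFP replicate 2 (0.0534) or 3 (0.131) at 0 h, and when only the 0 h libraries were fitted (0.170), while the log2 fold change stayed between 0.59 and 0.74. Summed endothelial markers were 44.9 to 55.2 CPM in P16 mice and 60.4 to 117 CPM in GFP mice at 0 h, with no marker at 0, and their part in the result was not tested.

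Over time, Erbb3 fell 2.68-fold in P16 mice (log2 fold change -1.42, SE 0.12, edgeR adjusted p = 5.17e-08), a call that held in all 20 alternatives. In GFP mice the mean was 91.4 CPM at 48 h, against 91.2 CPM before surgery, a log2 fold change of 0.00 (SE 0.12, edgeR adjusted p = 0.983). The responses differed by -1.43 on the log2 scale (SE 0.17, edgeR adjusted p = 0.00131). By p-value Erbb3 ranked 1 of the 12257 genes in that test, and the adjusted p stayed between 8.86e-12 and 0.0104 over 19 alternatives. Summed macrophage markers did not overlap between the times in P16 mice, as given above, and their part in the fall of Erbb3 was not tested.

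**Figure D2:**
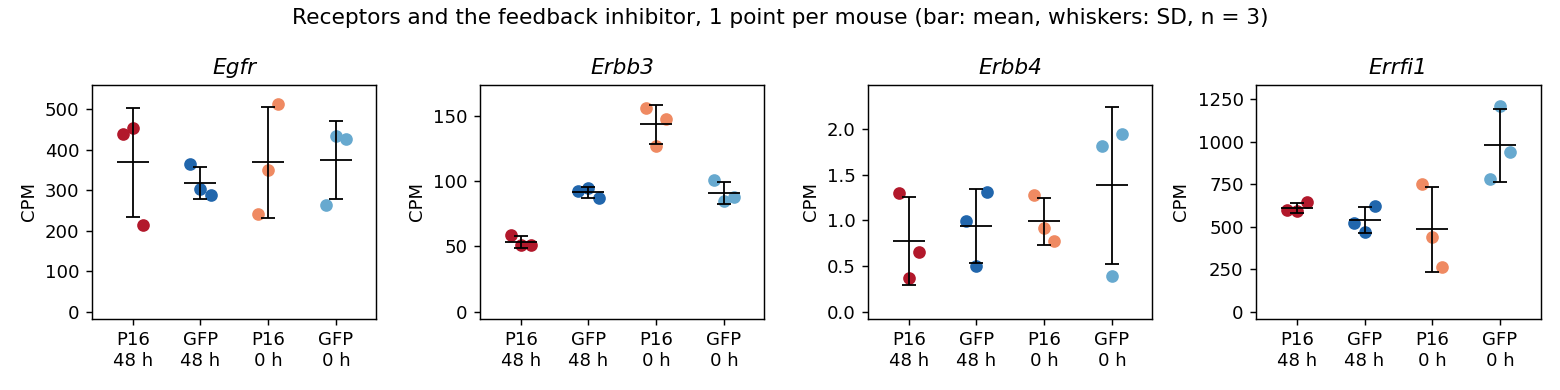
Scaled level (CPM, linear axis from 0) of Egfr, Erbb3, Erbb4 and Errfi1 in each mouse, by group; points are mice, and horizontal lines with whiskers are the mean ± SD of 3 mice. Erbb3 lies lowest in P16 mice at 48 h (50.8 to 58.7 CPM) and highest in P16 mice at 0 h (127 to 156 CPM).

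**Figure D3:**
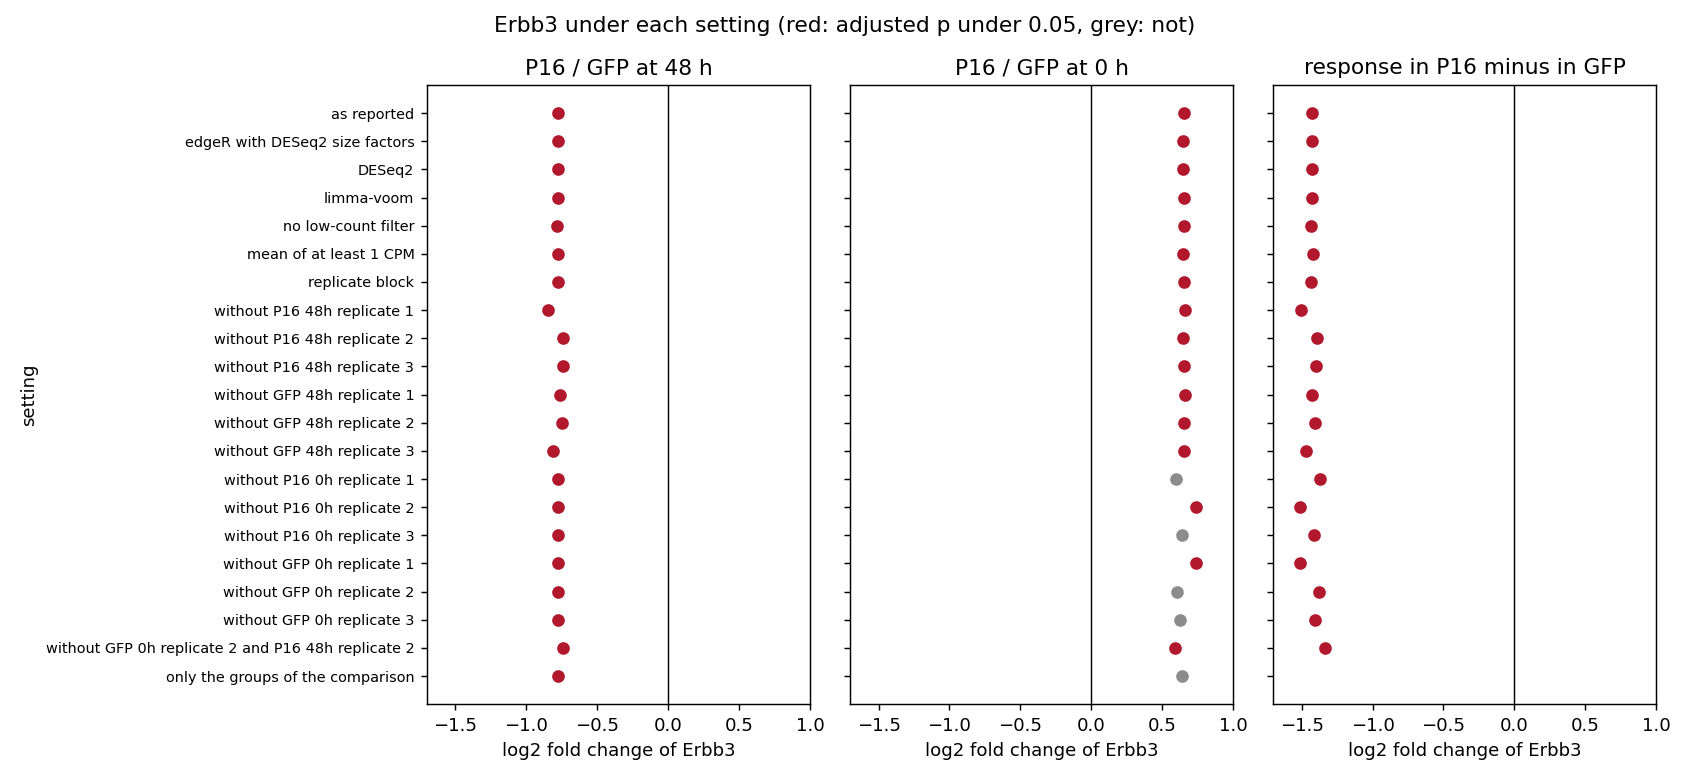
Log2 fold change of Erbb3 between P16 and GFP mice at 48 h and at 0 h, and its difference of responses, under the reported analysis and each alternative; red points passed at an adjusted p under 0.05 and grey ones did not. The difference at 48 h and the difference of responses passed throughout, and the difference at 0 h was lost in 5 of 20 alternatives.

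Egfr (ENSMUSG00000020122, chromosome 11, 16752203 to 16918158, plus strand) encodes the EGF receptor itself. Its level was 438, 455 and 215 CPM in P16 mice at 48 h and 364, 304 and 288 CPM in GFP mice at 48 h, against 242, 352 and 514 CPM in P16 mice at 0 h and 264, 435 and 427 CPM in GFP mice at 0 h. Mice of a group differed widely, and all 4 groups overlapped. The log2 fold change of P16 over GFP mice was 0.21 at 48 h (edgeR adjusted p = 0.808) and -0.02 at 0 h (edgeR adjusted p = 0.987). Over time it was 0.00 in P16 mice (edgeR adjusted p = 0.999) and -0.24 in GFP mice (edgeR adjusted p = 0.637). With an SE of 0.33 for each of these, a moderate difference in Egfr was not detectable in this design.

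Erbb4 (ENSMUSG00000062209, chromosome 1, 68032186 to 69108059, minus strand), another neuregulin receptor, was near the limit of detection. It had 26, 6 and 14 reads in P16 mice at 48 h, 31, 10 and 28 in GFP mice at 48 h, 16, 15 and 11 in P16 mice at 0 h, and 24, 7 and 26 in GFP mice at 0 h. The groups overlapped, and no comparison passed (edgeR adjusted p from 0.55 to 0.958). Erbb2 (ENSMUSG00000062312, chromosome 11, 98412470 to 98437716, plus strand), the ligandless partner receptor, had 9, 3 and 12 reads in P16 mice at 48 h, 0, 5 and 6 in GFP mice at 48 h, 2, 2 and 13 in P16 mice at 0 h, and 2, 4 and 3 in GFP mice at 0 h. It was not tested, and its exons overlap those of Mien1 on the other strand. With the strand setting not given, reads in the overlap may have been set aside as ambiguous or counted for the wrong gene.

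Errfi1 (ENSMUSG00000028967, chromosome 4, 150853919 to 150868892, plus strand) encodes MIG6, an inhibitor that binds the kinase domain of EGFR and is itself induced by receptor signalling. Its level was 601, 592 and 647 CPM in P16 mice at 48 h and 525, 470 and 623 CPM in GFP mice at 48 h, against 751, 437 and 264 CPM in P16 mice at 0 h and 784, 1210 and 941 CPM in GFP mice at 0 h. Every GFP mouse at 0 h was above every other mouse, and the P16 mice at 0 h spread over 264 to 751 CPM.

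Errfi1 fell 1.81-fold over time in GFP mice (539 ± 77.8 CPM at 48 h against 978 ± 216 CPM at 0 h, SD, n = 3 each; log2 fold change -0.86, SE 0.30, edgeR adjusted p = 0.0454). It passed in 8 of 20 alternatives, and was lost without P16 replicate 2 at 0 h, GFP replicate 2 or 3 at 0 h, or any library taken at 48 h (edgeR adjusted p from 0.0597 to 0.186). In P16 mice it averaged 613 ± 29.4 CPM at 48 h, against 484 ± 247 CPM before surgery (log2 fold change 0.34, SE 0.30, edgeR adjusted p = 0.399). Between P16 and GFP mice the log2 fold change was 0.18 at 48 h (edgeR adjusted p = 0.812) and -1.02 at 0 h (SE 0.30, edgeR adjusted p = 0.196). Leaving out P16 replicate 1 at 0 h brought 3 edgeR tests past the threshold. Without it the log2 fold change of P16 over GFP mice at 0 h was -1.48 (edgeR adjusted p = 0.0063) and that over time in P16 mice was 0.80 (edgeR adjusted p = 0.00863). The difference of responses was 1.66 (edgeR adjusted p = 0.0308), against 1.20 (edgeR adjusted p = 0.293) with it. The difference between P16 and GFP mice at 0 h also passed with DESeq2 on all libraries.

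Among the ligands, Tgfa (ENSMUSG00000029999, chromosome 6, 86195223 to 86275719, plus strand) had the highest level. It was 20.1, 17.0 and 17.8 CPM in P16 mice at 48 h and 19.3, 19.0 and 25.3 CPM in GFP mice at 48 h, against 21.4, 19.9 and 14.6 CPM in P16 mice at 0 h and 18.3, 18.7 and 14.3 CPM in GFP mice at 0 h. GFP mice at 48 h lay above GFP mice at 0 h by a small margin (log2 fold change 0.31, SE 0.17, edgeR adjusted p = 0.186), and no comparison of Tgfa passed. Its exons overlap the unnamed model Gm43917 on the other strand.

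Btc (ENSMUSG00000082361, chromosome 5, 91357261 to 91402994, minus strand) encodes betacellulin, a ligand of EGFR and ERBB4. Its level was 1.70, 1.11 and 1.12 CPM in P16 mice at 48 h and 3.43, 3.97 and 2.66 CPM in GFP mice at 48 h, against 1.19, 1.82 and 1.98 CPM in P16 mice at 0 h and 2.18, 0.279 and 1.42 CPM in GFP mice at 0 h. The 3 GFP mice at 48 h were above all others. Btc rose 2.64-fold in GFP mice over time (log2 fold change 1.40, SE 0.50, edgeR adjusted p = 0.0377), and was -0.35 on the log2 scale in P16 mice (SE 0.51, edgeR adjusted p = 0.620).

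The rise of Btc in GFP mice was lost without GFP replicate 2 at 0 h (log2 fold change 0.89, edgeR adjusted p = 0.112) or 3 (0.066) at 0 h, without GFP replicate 1 (0.0867) or 2 (0.118) at 48 h, and when only the GFP libraries were fitted (0.0742). Without GFP replicate 1 at 0 h the log2 fold change was 2.04 (edgeR adjusted p = 0.00994). At 48 h Btc stood 2.54-fold lower in P16 than in GFP mice without overlap, and it did not pass (log2 fold change -1.35, SE 0.49, edgeR adjusted p = 0.148). It did pass without GFP replicate 2 at 0 h (edgeR adjusted p = 0.0371) and when only the 48 h libraries were fitted (edgeR adjusted p = 0.0266). The difference of responses did not pass (-1.75, SE 0.71, edgeR adjusted p = 0.331).

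Hbegf (ENSMUSG00000024486, chromosome 18, 36504927 to 36515805, minus strand) encodes heparin-binding EGF-like growth factor, which is made as a membrane precursor and shed. It had 8, 8 and 18 reads in P16 mice at 48 h, 30, 22 and 18 in GFP mice at 48 h, 2, 6 and 11 in P16 mice at 0 h, and 1, 5 and 0 in GFP mice at 0 h. GFP mice at 48 h had 0.839 to 1.10 CPM and did not overlap with GFP mice at 0 h (0 to 0.279 CPM), whereas P16 mice overlapped between the times.

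Hbegf rose in GFP mice (log2 fold change 2.84, SE 0.84, edgeR adjusted p = 0.0144). It had enough reads to be tested only through GFP mice at 48 h, the group in which it was high. Its entry into the test and its call therefore rest on the same reads. With 70 reads over the group at 48 h and 6 at 0 h, the ratio of summed counts on the scale used for CPM was 7.16. Its 95% interval was 3.13 to 20.2 for counting error only. The call was lost without GFP replicate 1 (edgeR adjusted p = 0.0509) or 3 (0.0528) at 0 h, and the log2 fold change was 4.46 without GFP replicate 2 at 0 h and 2.33 without replicate 3. In P16 mice the log2 fold change was 0.41 (SE 0.75, edgeR adjusted p = 0.701), and the difference of responses did not pass (-2.43, SE 1.14, edgeR adjusted p = 0.412). Summed macrophage markers overlapped between the times in GFP mice.

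Egf (ENSMUSG00000028017, chromosome 3, 129677565 to 129755316, minus strand), the ligand that names the family, had 2, 9 and 20 reads in P16 mice at 48 h, 18, 11 and 1 in GFP mice at 48 h, 11, 22 and 8 in P16 mice at 0 h, and 24, 10 and 1 in GFP mice at 0 h. The mice of each group differed several-fold, the groups overlapped, and no comparison passed (edgeR adjusted p from 0.434 to 0.971). Its exons overlap the antisense models 6330410L21Rik and Gm42697. Areg (chromosome 5, 91139599 to 91148432, plus strand), the gene of amphiregulin, had 9, 0 and 1 reads in P16 mice at 48 h and 1, 1 and 5 in GFP mice at 48 h. In 0 h mice it had no read in either group, which allows up to 0.0695 CPM in P16 mice and 0.0673 CPM in GFP mice (3 counts over each group). It was not tested.

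**Figure D4:**
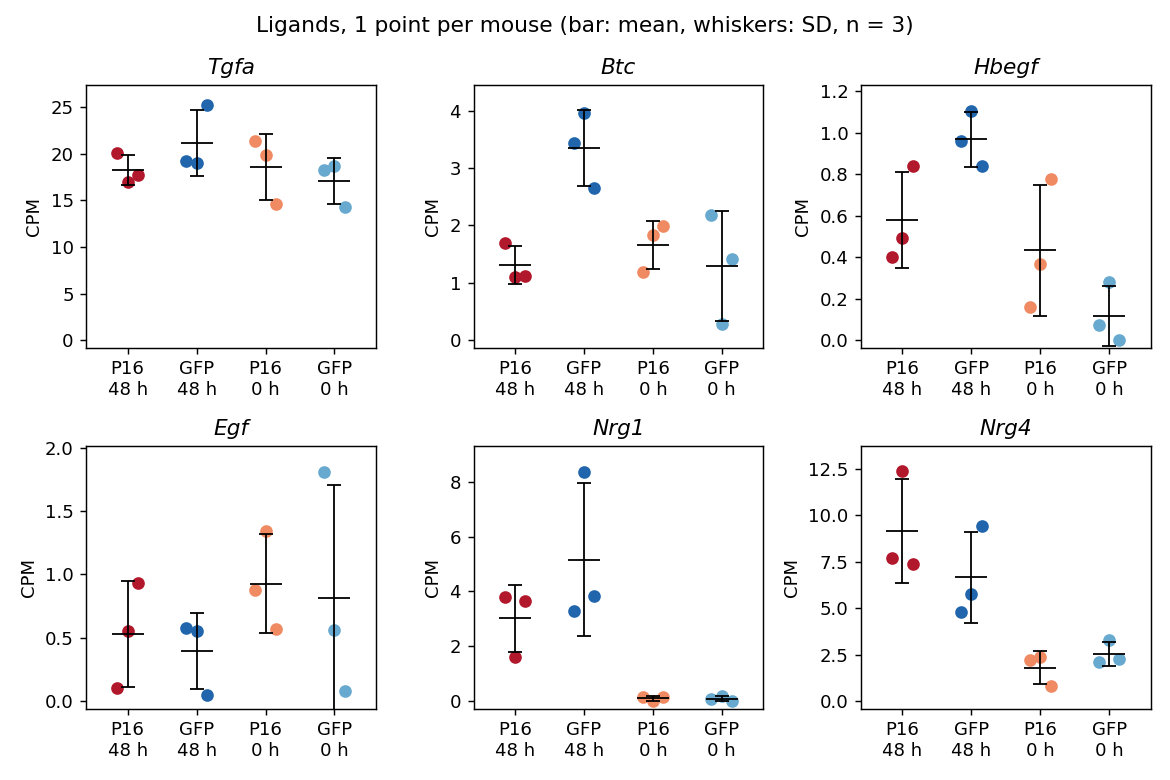
Scaled level (CPM, linear axis from 0) of Tgfa, Btc, Hbegf and Egf and of the further ligands Nrg1 and Nrg4 in each mouse, by group; points are mice, and horizontal lines with whiskers are the mean ± SD of 3 mice (a whisker that would pass below 0 is clipped by the axis). Btc lies highest in GFP mice at 48 h (2.66 to 3.97 CPM), and Hbegf stays at or below 1.10 CPM in every mouse.

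Levels of different genes were set beside each other per kilobase of exon. Averaged over the 12 libraries, Errfi1 stood at 182 CPM per kb, Egfr at 31.6, Erbb3 at 15.8 and Tgfa at 2.90 CPM per kb. Btc stood at 0.421, Hbegf at 0.108, Erbb4 at 0.0825 and Egf at 0.059 CPM per kb. Among 12248 tested genes ranked by this level, Errfi1 held place 286, Egfr 1235, Erbb3 2088 and Tgfa 5963, while Btc was at place 10377, Hbegf at 11868, Erbb4 at 12024 and Egf at 12136. Errfi1 was above Egfr in 12 of 12 libraries, Egfr above Erbb3 in 11 of 12, Erbb3 above Tgfa in 12 of 12 and Tgfa above Btc in 12 of 12. Btc was above Hbegf in 12 of 12, whereas Hbegf was above Erbb4 in 8 of 12 and Erbb4 above Egf in 6 of 12, so the order of the lowest members was not resolved.

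The other ligands of the family were measured from a list of 6 genes, of which 2 were tested. Nrg1, the gene of neuregulin 1, a ligand of ERBB3 and ERBB4, had 76, 26 and 78 reads in P16 mice at 48 h, 103, 167 and 82 in GFP mice at 48 h, 2, 0 and 2 in P16 mice at 0 h, and 1, 3 and 0 in GFP mice at 0 h. Every mouse at 48 h was above every mouse at 0 h, and Nrg1 had enough reads to be tested only through the 48 h mice. Its entry into the test and its calls over time therefore rest on the same reads. Nrg1 rose in P16 mice (log2 fold change 4.92, SE 0.73, edgeR adjusted p = 3.54e-05) and in GFP mice (log2 fold change 5.75, SE 0.72, edgeR adjusted p = 5.66e-06), in all 20 alternatives each. The ratio of summed counts on the scale used for CPM was 33.7 in P16 mice (95% interval 12.9 to 125) and 54.0 in GFP mice (20.9 to 199), for counting error only.

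Nrg4, the gene of neuregulin 4, a ligand of ERBB4, was 7.71, 12.4 and 7.37 CPM in P16 mice at 48 h and 4.77, 5.77 and 9.41 CPM in GFP mice at 48 h, against 2.22, 2.37 and 0.779 CPM in P16 mice at 0 h and 2.11, 3.29 and 2.24 CPM in GFP mice at 0 h. It rose in P16 mice (log2 fold change 2.34, SE 0.38, edgeR adjusted p = 8.97e-05) and in GFP mice (log2 fold change 1.36, SE 0.36, edgeR adjusted p = 0.00705). In GFP mice the call was lost without replicate 3 at 48 h (edgeR adjusted p = 0.053). Beside these rises, the summed macrophage markers did not overlap between the times in P16 mice and overlapped in GFP mice, and 3 of 9 stellate cell markers rose and 2 fell over time in each, with overlapping sums (51.1 to 77.5 CPM at 48 h against 48.8 to 89.9 CPM at 0 h in P16 mice, and 57.6 to 72.6 against 67.2 to 92.6 CPM in GFP mice). Their part in the rises of Nrg1 and Nrg4 was not tested. Neither gene differed past the test between P16 and GFP mice (Nrg1 at 48 h -0.76, adjusted p = 0.430; Nrg4 at 0 h -0.52, adjusted p = 0.605, edgeR). Ereg, Epgn, Nrg2 and Nrg3 had 0 to 3 reads over any group and were not tested.

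In all, 83 pathway genes that are not listed members were followed in 7 lists, and 72 were tested. Between P16 and GFP mice at 48 h, 1 was higher and 4 were lower in P16 mice (6.94%, against 2.28% of all tested genes), with none left past the test without P16 replicate 2 or any single GFP replicate at 48 h and with 3, all lower, without P16 replicate 1 or 3. The balance of directions depended on the method at 48 h. DESeq2 called 3 higher and 4 lower, and limma-voom called 4 higher and 4 lower, as did the fit of only the 48 h libraries. At 0 h none passed by the edgeR test, whereas DESeq2 called 5 (4 higher and 1 lower) and limma-voom none. From 0 h to 48 h, 18 rose and 9 fell in P16 mice (37.5%, against 38.6% of all genes), and 12 rose and 4 fell in GFP mice (22.2%, against 33.6%). No pathway gene passed in the difference of responses by the edgeR test, whereas DESeq2 called 2 (1 higher and 1 lower) and limma-voom none. The counts over time were near or below the share of all genes.

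Of the genes for ligand shedding and the rhomboid-like iRhom proteins, which guide the protease ADAM17, 6 of 8 were tested. Rhbdf1 (iRhom1) rose over time in P16 mice (log2 fold change 1.5, SE 0.28, edgeR adjusted p = 0.000419) and in GFP mice (log2 fold change 1.85, SE 0.28, edgeR adjusted p = 5.34e-05), in every alternative. In P16 mice Rhbdf2 (0.75, adjusted p = 0.007) and Frmd8 (0.75, adjusted p = 0.0118, lost without P16 replicate 1 at 48 h at 0.0546) rose too. In GFP mice Adam10 rose (0.49, adjusted p = 0.0418), a call that held in 13 of 20 alternatives. The median log2 fold change of the list was 0.51 in P16 mice and 0.35 in GFP mice, against 0.00 and -0.01 over all genes, and none of the list passed between P16 and GFP mice.

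All 17 adaptor, RAS and ERK cascade genes were tested. Of these, 4 genes rose and 5 fell over time in P16 mice, among them the adaptor gene Gab1 (-0.86, edgeR adjusted p = 0.00418) and Nras (0.71, edgeR adjusted p = 0.00149). In GFP mice 3 rose and 2 fell, among them Plcg1 (-0.49, edgeR adjusted p = 0.00849) and Mapk3, the gene of ERK1 (0.48, edgeR adjusted p = 0.00657, lost without GFP replicate 2 at 48 h at 0.0522). Plcg1 fell in P16 mice too (-0.38, edgeR adjusted p = 0.0319, held in 15 of 20 alternatives). Of the 8 PI3K and AKT genes, Akt1 alone passed, rising in P16 mice (0.61, edgeR adjusted p = 0.00327) and in GFP mice (0.40, edgeR adjusted p = 0.0435, held in 11 of 20 alternatives). Of 12 tested genes of receptor trafficking and turnover, Snx1 rose in P16 mice (0.42, edgeR adjusted p = 0.0318, held in 14 of 20 alternatives). In GFP mice Snx1 rose (0.49, edgeR adjusted p = 0.0158, held in 18 of 20) and Rab7 fell (-0.34, edgeR adjusted p = 0.038, held in 11 of 20). None of these 2 lists passed between P16 and GFP mice.

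Of the negative regulators of receptor signalling, 17 of 18 were tested. Dusp6, an ERK phosphatase, was 87.0, 75.8 and 90.7 CPM in P16 mice at 48 h and 55.7, 47.3 and 46.0 CPM in GFP mice at 48 h, against 59.6, 35.3 and 56.3 CPM in P16 mice at 0 h and 34.7, 28.4 and 24.3 CPM in GFP mice at 0 h. P16 mice were above GFP mice at both times without overlap, past the test at 48 h (log2 fold change 0.77, SE 0.17, edgeR adjusted p = 0.0317) and not at 0 h (0.79, SE 0.18, edgeR adjusted p = 0.0794). The call at 48 h was lost without any single library of the 48 h groups (highest adjusted p 0.15). Over time Dusp6 rose in P16 mice (0.75, edgeR adjusted p = 0.00241) and in GFP mice (0.77, edgeR adjusted p = 0.00252), in every alternative.

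Spred2, a further inhibitor of the RAS-ERK cascade, was 3.00, 3.21 and 3.83 CPM in P16 mice at 48 h and 7.66, 5.87 and 7.22 CPM in GFP mice at 48 h. The groups did not overlap, and Spred2 was lower in P16 mice (log2 fold change -1.05, SE 0.23, edgeR adjusted p = 0.0295). It fell over time in P16 mice (-1.30, edgeR adjusted p = 0.000243), and its difference of responses did not pass (-0.98, SE 0.32, edgeR adjusted p = 0.209). The call at 48 h was lost without P16 replicate 1 or 2 or any GFP replicate at 48 h (highest adjusted p 0.137). Spry4, which inhibits the same cascade, fell in P16 mice (-1.64, edgeR adjusted p = 0.000558). Of this list 5 rose and 4 fell over time in P16 mice, with Dusp5 the largest rise (2.21, edgeR adjusted p = 0.0433, held in 11 of 20 alternatives), and in GFP mice Dusp6 rose and Ptprk fell (-0.47, edgeR adjusted p = 0.00768). Ptprk fell in P16 mice too (-0.58, edgeR adjusted p = 0.00135).

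Of 16 ERK-responsive genes 12 were tested, and Dusp6 and Spry4 belong to this list as well. At 48 h the list had 1 gene higher in P16 than in GFP mice (Dusp6) and 2 lower, namely Etv5 (log2 fold change -1.25, SE 0.28, edgeR adjusted p = 0.0317) and Ccnd1, the cyclin D1 gene (-0.91, SE 0.19, edgeR adjusted p = 0.0224). The largest changes of the list at 48 h were higher in P16 mice and did not pass. These were Fos (1.87, edgeR adjusted p = 0.0838) and Junb (1.53, edgeR adjusted p = 0.0692), each past the test in 5 of 20 alternatives. The Etv5 call was lost without P16 replicate 2 or any GFP replicate at 48 h and with a replicate block (highest adjusted p 0.186) and the Ccnd1 call without P16 replicate 2 or 3 or any GFP replicate at 48 h (highest adjusted p 0.138). The median of the list was 0.70 between P16 and GFP mice at 48 h and 0.95 at 0 h, against 0.00 over all tested genes at both times. No gene of the list passed at 0 h, and the P16 mice at 0 h differed widely, as given below. Over time 3 rose and 1 fell in P16 mice and 3 rose in GFP mice. Ccnd1 rose in both (3.47, adjusted p = 1.94e-09 in P16 mice, and 4.32, adjusted p = 1.24e-10 in GFP mice, edgeR). Etv5 rose in GFP mice (1.01, edgeR adjusted p = 0.0103), a call lost without GFP replicate 2 at 48 h (0.0537). Ier3 rose in P16 mice (edgeR adjusted p = 2.85e-05), with 182 reads over the group at 48 h and 1 at 0 h. The ratio of its summed counts on the scale used for CPM was 136 (95% interval 24.2 to 5412 for counting error only). Ier3 had enough reads to be tested only through the 48 h mice, so its entry into the test and its call rest on the same reads. In GFP mice it had 99 reads at 48 h and 27 at 0 h, a ratio of 2.25. It did not pass there (log2 fold change 1.32, edgeR adjusted p = 0.116). Nor did Ier3 pass between P16 and GFP mice at 48 h (edgeR adjusted p = 0.323) or at 0 h (0.137).

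As a mean log2 level relative to the mean of GFP mice at 0 h, the ERK-responsive list stood at 0.84, 1.19 and 1.35 in P16 mice at 48 h and at 0.74, 0.52 and 0.49 in GFP mice at 48 h. At 0 h it stood at 1.17, 0.07 and 0.03 in P16 mice and at 0.27, -0.32 and 0.06 in GFP mice. P16 replicate 1 at 0 h was apart from the other P16 mice of its time here, and it was also the mouse with the highest Errfi1 of its group, 751 CPM. Whether this bears on the 0 h values of Errfi1 was not tested.

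**Figure D5:**
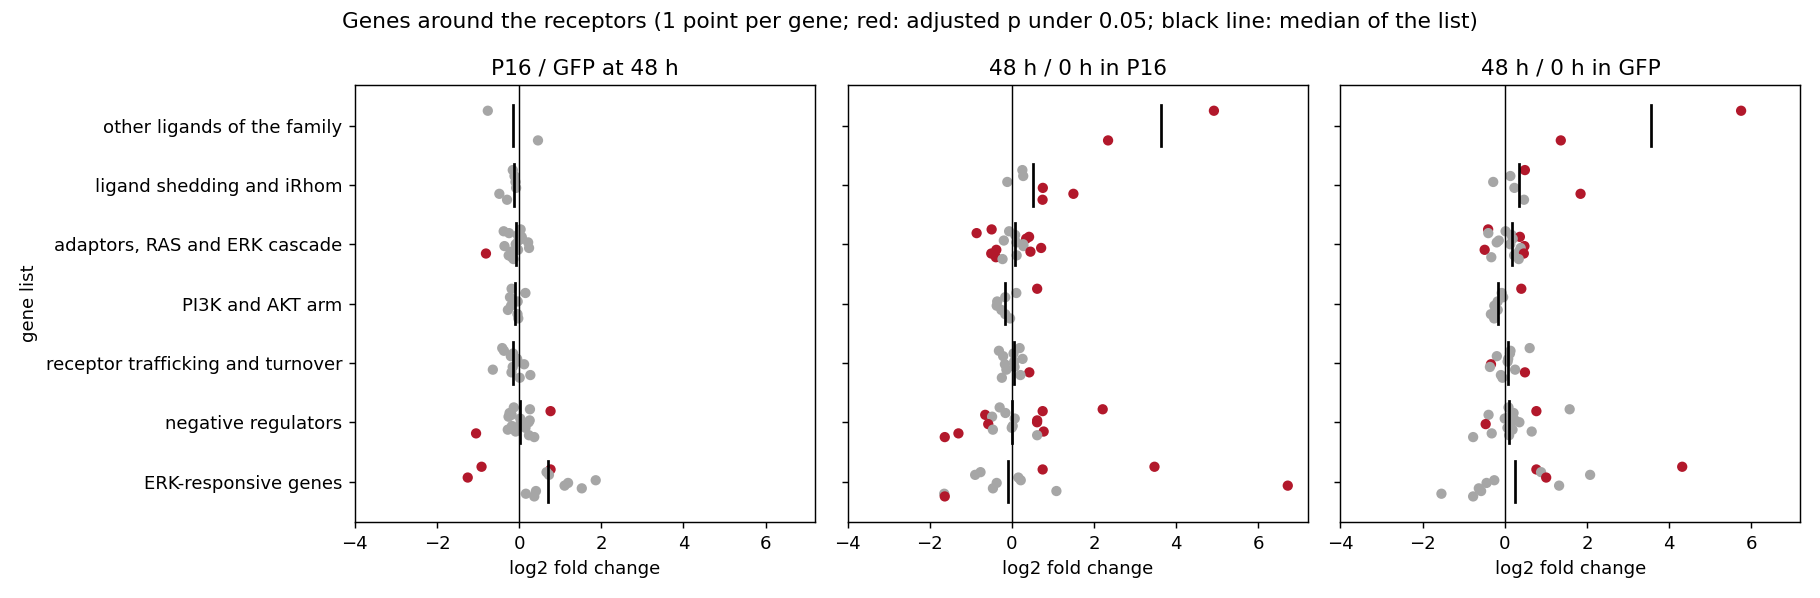
Log2 fold change of every tested gene of the pathway lists between P16 and GFP mice at 48 h and over time in P16 and in GFP mice, 1 point per gene, with the median of each list as a black line; red points passed at an adjusted p under 0.05. Over time Nrg1 lies at 4.92 in P16 mice and 5.75 in GFP mice, and Ccnd1 at 3.47 and 4.32. Ier3 lies farthest to the right in P16 mice, at 6.72, and at 1.32 in GFP mice. Most other points lie near 0.

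The genes whose pattern over the 12 libraries was most like that of a member were found by the root mean square difference of log2 CPM, each gene centred on its own mean, among 8658 genes with a mean of at least 5 CPM. For Erbb3, whose own centred values had a root mean square of 0.51, the nearest were Casp9 (0.15), Kank1 (0.18) and Grb7 (0.18). Casp9 changed over time by -1.44 in P16 mice and -0.03 in GFP mice on the log2 scale, Kank1 by -1.16 and -0.23, and Grb7 by -1.39 and -0.46. For Egfr, with 0.39 of its own, the nearest were Gfod2 (0.24), Crem (0.25) and Nrp1 (0.27). For Errfi1, with 0.54 of its own, the nearest were Foxa1 (0.30), Capn10 (0.32) and Bin3 (0.36). The neighbours of Egfr and Errfi1 lay much farther off, relative to the genes' own variation, than those of Erbb3.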

How the data were processed

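Poly(A) RNA from freshly isolated hepatocytes of 12 mice was analysed, 3 mice for each of the 4 groups given in the labels. The authors deposited raw read counts per gene. The submitters' processing notes name HTSeq, Picard, SAMtools, STAR 2.5.0c and Trim Galore, and the build mm10. The sources used here give neither the annotation release nor the strand setting. A second copy of the table held the same values and was not used. Rows naming no gene (5) stayed out of library sizes; reads outside features made up 3.62 to 9.8% and ambiguous reads 4.87 to 8.8% of a library. Positions and exon lengths came from GENCODE vM21 (GRCm38), which held 30934 of 31053 identifiers. The deposited name differed from its symbol in 736 of 30761 rows, so genes were matched by identifier.

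Counts were tested with edgeR 4.0.16 in R 4.3.3, by its robust quasi-likelihood F test. The model held 4 group means and was fitted to 12 libraries, with TMM factors of 0.825 to 1.23. The filterByExpr function (minimum count 10) kept 12257 genes, over which Benjamini-Hochberg adjustment was made at a threshold of 0.05. The SE of a log2 fold change is its size divided by the square root of F. The scripts were tested on simulated data. Alternatives were DESeq2 1.42.0, limma 3.58.1 (voom), other scaling and filters, a replicate block and left-out libraries. Replicates were separate mice with log CPM correlations of 0.95 to 0.981, and within a group every pair of libraries differed by more than sampling noise (chi-square per degree of freedom at least 14.6).

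Named were all 10 listed genes in every comparison, up to 3 genes of each pathway list past the test with the largest change in each comparison or else the 1 with the lowest p (not all of these are printed), and 3 pattern neighbours of Egfr, Erbb3 and Errfi1. Fos and Junb are named besides, for the largest changes of the ERK-responsive list at 48 h. The members and lists were chosen with earlier results of these data known. 1 gene of the pathway lists, counted in the totals, is not reported here.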

Additional observations from a re-analysis of the deposited data

Results flagged for a closer look

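Erbb3 was flagged because its response to hepatectomy differed between P16 and GFP mice by a test of the difference itself. The response in P16 mice minus that in GFP mice was -1.43 on the log2 scale (SE 0.17, edgeR adjusted p = 0.00131). The change was -1.42 in P16 mice and 0.00 in GFP mice. The 3 P16 mice at 48 h all lay below the 3 separate P16 mice at 0 h. Of all tested genes, 49.5% had no overlap between these groups.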

How the results depend on the processing

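Each member's fold change was recomputed under up to 20 alternatives (up to 19 for the difference of responses, and 1 or 2 fewer for Hbegf and Egf, which some filters removed). Of 780 such values 703 kept their direction and their side of the threshold, 46 changed sign, 25 lost the call and 6 gained it. None of the 7 results past the test changed sign, and 113 of their 138 values kept the call. The number of members past the test changed for P16 against GFP mice at 0 h to 2 with DESeq2 (Erbb3 and Errfi1) and to 0 when only those groups were fitted, for P16 against GFP mice at 48 h to 2 when only those groups were fitted, and for 48 h against 0 h in GFP mice to 1 without GFP replicate 2 at 0 h and P16 replicate 2 at 48 h together. In GFP mice over time it was 2 without the low-count filter (Errfi1 lost), with a mean of at least 1 CPM (Hbegf not tested) and with only those groups fitted (Btc lost). With 1 library left out it ranged from 0 to 1 (P16 against GFP, 0 h), 1 to 2 (48 h), 1 to 2 (time, P16 mice), 0 to 3 (time, GFP mice) and 1 to 2 (difference of responses). Over the alternatives the calls among all genes ranged from 5 to 214 at 0 h (27 as reported), from 10 to 752 at 48 h (280 as reported) and from 1 to 227 in the difference of responses (12 as reported). With DESeq2 they were 214, 707 and 227, with limma-voom 17, 355 and 1, and without the low-count filter 160, 538 and 173. At 48 h they were 10 without GFP replicate 3 at 48 h, 28 without 2, 31 without 1 and 21 without P16 replicate 2. Over time they stayed within 1.5 times the reported 4731 in P16 mice and 4117 in GFP mice.

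Signs turned only in results that did not pass. With limma-voom these were Egfr over time in P16 mice (-0.0048) and, in the difference of responses, Erbb4 (-0.23) and Egf (-0.46). Without GFP replicate 2 at 0 h and P16 replicate 2 at 48 h together they were, between P16 and GFP mice, Egfr (0.088), Egf (-0.019) and Btc (-0.11) at 0 h and Erbb4 (0.051) at 48 h; over time, Egfr (-0.17) and Tgfa (0.032) in P16 mice and Erbb3 (-0.047) in GFP mice; and Egfr (-0.057) in the difference of responses. With only the groups compared it was Erbb3 over time in GFP mice (-0.0096). Further signs turned with 1 library left out. For the results with a turned sign, all values over the alternatives, turned or not, are given as ranges. Between P16 and GFP mice at 0 h they ranged from -0.33 to 0.21 (Egfr), -0.32 to 1.47 (Egf) and -0.11 to 1.04 (Btc), and at 48 h from -0.85 to 0.054 (Erbb4) and -0.32 to 0.903 (Egf). Over time they ranged in P16 mice from -0.23 to 0.31 (Egfr) and -0.17 to 0.081 (Tgfa), and in GFP mice from -1.53 to 0.25 (Egf) and -0.047 to 0.086 (Erbb3). In the difference of responses they ranged from -0.057 to 0.55 (Egfr), -0.38 to 0.99 (Erbb4) and -1.06 to 0.73 (Egf). The causes were not tested.

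Replicate numbers did not pair the mice: deviations of same-numbered libraries from their group means correlated between -0.048 and 0.061. With the replicate block 1, 1, 1 and 1 members passed between P16 and GFP mice at 48 h and 0 h, over time in P16 mice and in the difference of responses, and 2 over time in GFP mice, where Errfi1 did not pass (edgeR adjusted p = 0.0652). Of the pathway genes the block called 1 higher and 3 lower at 48 h, 18 higher and 8 lower over time in P16 mice, and 11 higher and 3 lower in GFP mice. Under it Erbb4 in the difference of responses turned to -0.047. Depth limits Erbb2, Erbb4, Areg, Egf and Hbegf, which had at most 31 reads in a library.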
